A study of Mus musculus with 77 samples.

Results

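The 8 genes described here (Hmox1, Fth1, Ftl1, Slc40a1, Tfrc, Slc11a1, Cp and Slc7a11) were taken as a named set of iron, heme and oxidative defence genes out of the 52636 genes of each count table, and all 8 were found in all 5 tables. RNA of mouse cerebral white matter was sequenced in 77 libraries, each carrying the label of 1 of 5 cell types and the label stroke or control. EC contributed 7 stroke and 5 control libraries, while the pericyte table held 8 stroke and 7 control libraries. OPC and astrocytes each had 6 stroke and 6 control libraries. The microglia libraries comprised 9 of P4 stroke, 9 of P2 stroke and 8 of P2 control, so that P4 had no control of its own. The series title names focal ischemia, and the labels give no strain, genotype, age, way of inducing stroke, time after it or way of isolating the cells, and do not expand EC, OPC, P2 or P4. They also do not say that libraries came from separate animals, so the p-values measure the spread between these libraries, which may be technical.

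A cell takes up iron bound to transferrin through the transferrin receptor, stores it in ferritin, a shell of heavy and light chains, and exports it through ferroportin, with a ferroxidase oxidising it on the outside. Heme, the iron-holding group of hemoglobin, is broken down by heme oxygenase, which releases the iron. In brain tissue blood, dying cells and myelin are sources of iron, and free iron feeds lipid peroxidation, against which glutathione made from imported cystine protects the cell. When iron is scarce, iron regulatory proteins bind a hairpin called the iron-responsive element: in the 5′ untranslated region it blocks translation, and in the 3′ untranslated region of the transferrin receptor mRNA it protects the message from decay. Changes in translation would not appear in RNA counts.

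The hairpins are shown because they join 4 of the 8 genes in 1 circuit. A search of the GENCODE M21 transcripts on GRCm38 for an unpaired C, a stem of 5 base pairs (G with U allowed) and the loop CAGTGN found 1 in the 5′ untranslated region of Fth1, Ftl1 and Slc40a1 each and 4 in the 3′ untranslated region of Tfrc. They are printed 5′ to 3′ on the transcript's strand with the loop in capitals.
Fth1, chr19:9982732-9982760, + strand: ttcctgcttcaaCAGTGCttgaacggaac
Ftl1, chr7:45459779-45459807, − strand: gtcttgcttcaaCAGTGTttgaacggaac
Slc40a1, chr1:45925465-45925493, − strand: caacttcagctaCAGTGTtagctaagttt
Tfrc, chr16:32631219-32631247, + strand: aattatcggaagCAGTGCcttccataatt
Tfrc, chr16:32631598-32631626, + strand: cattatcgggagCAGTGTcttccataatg
Tfrc, chr16:32631663-32631691, + strand: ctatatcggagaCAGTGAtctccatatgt
Tfrc, chr16:32631710-32631738, + strand: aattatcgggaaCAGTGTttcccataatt
Such a hairpin was found in the 5′ untranslated regions of 28 of 20840 genes (0.134%) and in the 3′ untranslated regions of 126 of 20920 genes (0.602%). No hairpin of this form was found in the other 4 genes. The antioxidant response element core TGACNNNGC, bound by NRF2, and the AP-1 site TGACTCA, which can overlap it, were searched on both strands of the RefSeq promoter windows (GRCm38.p6) around the start sites. They were present in 12.4% and 5.2% of 32851 promoters. Neither was in the promoter windows of Cp, Fth1, Ftl1, Slc11a1, Slc7a11 and Tfrc, the 6 members matched there. The windows covered only the bases close to each start site, and elements further away were not searched.

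Library totals were 43367636 to 142944063 counts in the 4 tables other than microglia, against 5530125 to 11770194 in microglia. Levels are given in CPM, counts per 1000000 of the TMM-scaled library total. The summed markers of each labelled cell type were highest in its own table. Markers of other cell types were nevertheless above those of the labelled type in the OPC, EC and pericyte tables. Mature oligodendrocyte markers (9 genes) summed to a mean of 45738 CPM in OPC stroke and 70987 CPM in OPC control libraries, where OPC markers summed to 11385 CPM in stroke and 12089 CPM in control, and to 10412 CPM in EC stroke and 9590 CPM in EC control libraries, where endothelial markers summed to 4247 CPM in stroke and 2980 CPM in control. Neuron markers (10 genes) also exceeded the endothelial ones in EC, with 5702 CPM in stroke and 8012 CPM in control. Astrocyte markers (10 genes) exceeded the endothelial ones in EC control (3348 CPM) and were just below them in EC stroke (4137 CPM). In pericyte stroke libraries fibroblast markers (12763 CPM) exceeded pericyte markers (12606 CPM), and in pericyte controls mature oligodendrocyte markers (12925 CPM) exceeded pericyte markers (11988 CPM). Microglia markers (12 genes such as Cx3cr1, P2ry12 and C1qa) were detected in every table and were higher with stroke in the 4 other tables. Their summed level was 2441 to 5026 in pericyte stroke and 355 to 2009 in pericyte control libraries, 481 to 919 in OPC stroke and 75.7 to 148 in OPC control libraries, 1387 to 2169 in astrocyte stroke and 467 to 645 in astrocyte control libraries, and 197 to 390 in EC stroke and 121 to 189 in EC control libraries. All 12 passed the test as higher in pericytes, OPC and astrocytes, and 5 of 12 in EC. Fibroblast markers summed to 4510 to 23869 CPM in pericyte stroke and 1712 to 6052 CPM in pericyte control libraries (5 of 8 higher), and 6 of 7 fibroblast markers tested were higher in OPC and 3 of 7 in astrocytes. Neuron markers were lower with stroke, in 8 of 10 genes in pericytes (mean sum 1078 CPM in stroke and 2477 CPM in control), 7 of 10 in astrocytes (1263 CPM in stroke and 2447 CPM in control), 6 of 10 in OPC (433 CPM in stroke and 706 CPM in control) and 6 of 10 in EC. The part of these marker shifts in the results on single genes was not tested. In bulk RNA a change in the number of cells of a type and a change in RNA per cell cannot be told apart. Among pericyte libraries the number in the library name split the values of several genes (numbers up to 10 against above 10), and pericyte control library 6 held 5245 CPM of ependymal and choroid plexus markers, against 20.9 to 77.7 CPM in the other 6 controls.

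In control libraries the 8 genes differed in where they were highest. Fth1, the ferritin heavy chain, was the most abundant of the 8 in each cell type also per length, with a mean of 1236 CPM per kb of exon in pericyte, 757 in EC, 481 in astrocyte, 364 in OPC and 140 in microglia P2 control libraries. Ftl1, the light chain, had 184 CPM per kb in pericyte and 70.0 to 81.1 in the other 4 control groups, whose ranges overlapped. Cp and Slc7a11 were highest in pericytes. Cp, the ferroxidase ceruloplasmin, averaged 437 CPM in pericyte controls and at most 40.3 CPM in the other 4 groups. Slc7a11, the cystine importer, averaged 237 CPM in pericyte, 55.5 CPM in astrocyte, 7.68 CPM in EC, 1.83 CPM in OPC and 0.575 CPM in microglia P2 control libraries, and the ranges of the first 4 did not overlap. Slc40a1, ferroportin, was highest in microglia (150 ± 173 CPM, SD, n = 8) and EC (76.0 ± 28.97 CPM, n = 5), whose ranges overlapped, then 16.6 CPM in pericytes, 6.34 CPM in astrocytes and 3.83 CPM in OPC. Slc11a1, a metal transporter of phagocyte lysosomes also called NRAMP1, averaged 126 CPM in microglia against 1.25 to 16.6 CPM elsewhere. Tfrc was highest in EC (51.6 ± 6.34 CPM, n = 5), with overlapping ranges in the next 3 groups. The order for Hmox1 was astrocyte (37.0 CPM), EC (22.8 CPM), pericyte (16.4 CPM), OPC (16.0 CPM) and microglia P2 control (8.44 CPM), each overlapping the next. The tables were scaled separately, so these levels were set side by side and not tested.

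**Figure D1:**
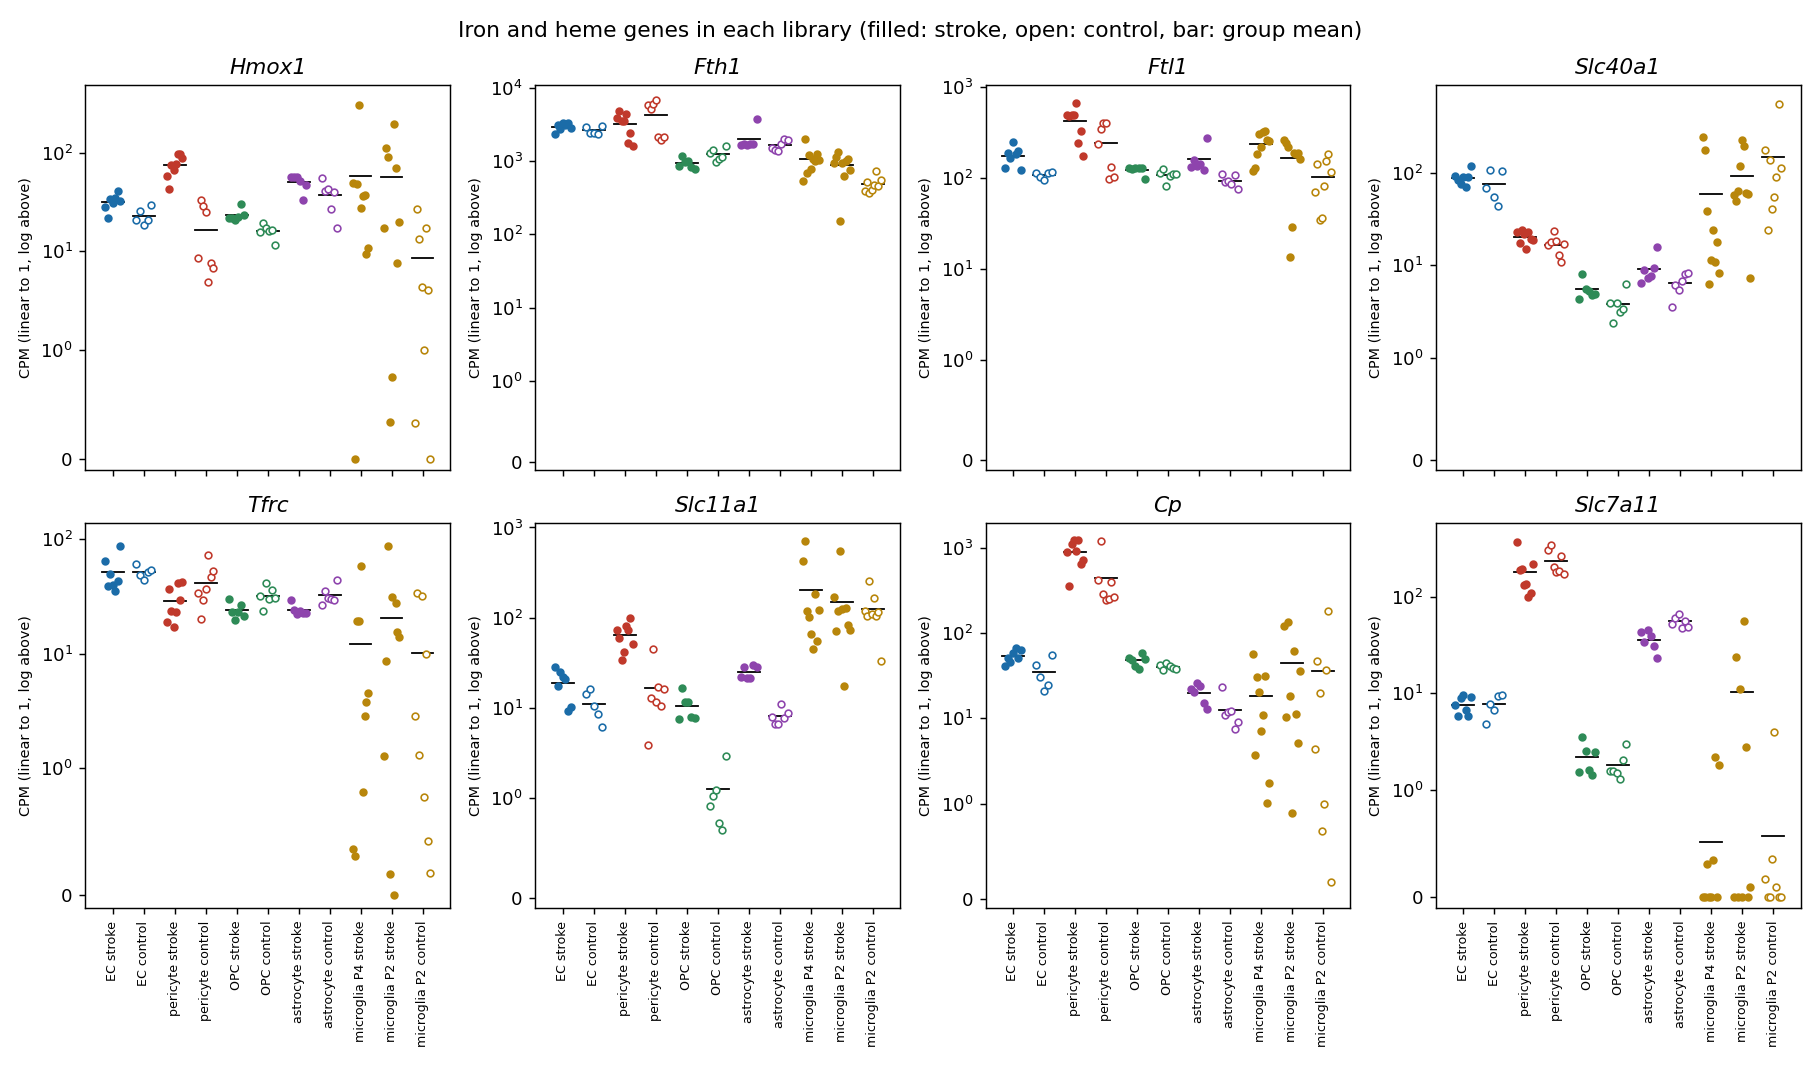
Level of each gene in every library, in CPM on an axis that is linear up to 1 and logarithmic above; filled points are stroke libraries, open points control libraries and bars group means. Pericyte stroke libraries hold 42.6 to 97.4 CPM of Hmox1, above the 4.89 to 33.2 CPM of pericyte controls. The SD relative to the mean is largest in a microglia group for each gene but Fth1 and Ftl1. For these it is largest in pericyte controls (49.6% and 56.4%).

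Stroke was compared with control inside each cell type with edgeR's quasi-likelihood test over all genes of a table, and a gene was called at a Benjamini-Hochberg adjusted p under 0.05. In pericytes 3 of the 8 genes were higher and 0 lower, where 28.7% of all genes tested were called (15.9% higher and 12.8% lower). In OPC 2 were higher and 2 lower, with 20.5% of all genes called (11.7% higher and 8.77% lower). In astrocytes 2 were higher and 2 lower, with 10.3% called (5.63% higher and 4.68% lower). In EC 1 was higher and 0 lower, with 6.23% called (3.57% higher and 2.67% lower). The members' median log2 fold change of stroke over control was 0.53 in pericytes, 0.26 in OPC, 0.48 in astrocytes and 0.35 in EC, against −0.08, −0.01, −0.04 and 0.03 over all genes tested in the same tables. The plot of log2 fold changes with their standard errors gives the 8 genes in these 4 cell types.

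**Figure D2:**
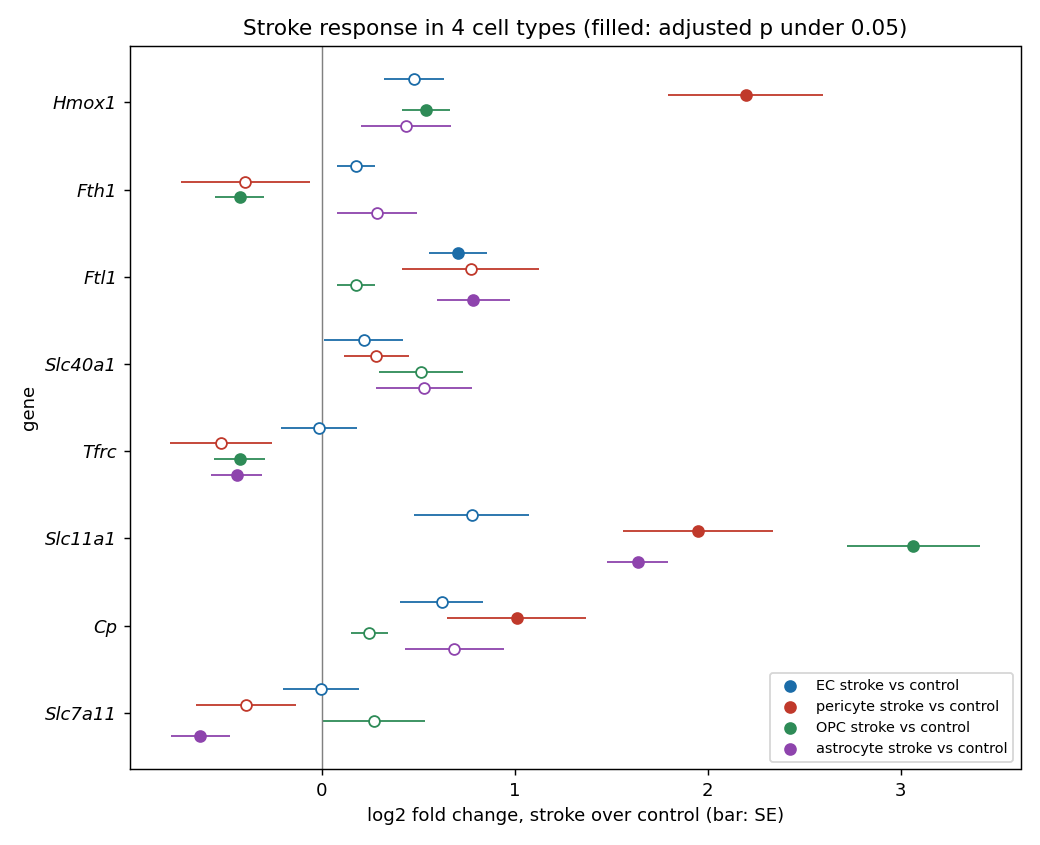
Log2 fold change of stroke over control (horizontal axis, bars 1 standard error) for each gene in EC, pericytes, OPC and astrocytes; filled points passed an adjusted p of 0.05. Slc11a1 is to the right of 0 in all 4 cell types, passing in 3, and Hmox1 in pericytes stands at 2.20, apart from 0.44 to 0.54 in the other 3.

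Hmox1 encodes heme oxygenase 1, the inducible enzyme that opens the heme ring (chr8:75093621-75100589, + strand, GRCm38). Pericyte stroke libraries held 42.6, 75.7 and 97.4 CPM (lowest, median and highest), against 4.89, 8.44 and 33.2 CPM in pericyte controls. Every stroke library was above every control. The means were 75.0 ± 19.1 CPM in stroke (SD, n = 8) and 16.4 ± 12.1 CPM in control (n = 7), a log2 fold change of 2.20 (SE 0.40, adjusted p = 0.00109). In OPC the libraries held 20.8, 22.0 and 30.1 CPM in stroke and 11.5, 16.2 and 19.5 CPM in control. These groups did not overlap either, and the rise was smaller: 23.3 ± 3.45 CPM in stroke and 16.0 ± 2.60 CPM in control (n = 6 each), a log2 fold change of 0.54 (SE 0.12, adjusted p = 0.00582). EC stroke libraries held 21.5, 32.6 and 41.1 CPM, against 18.4, 20.5, 20.6, 25.4 and 29.3 CPM in the 5 EC controls. All 7 were above the control median, and the difference of 0.48 (SE 0.16) missed the threshold (adjusted p = 0.0807). It passed with DESeq2 (adjusted p = 0.0354) and when control library 11 (adjusted p = 0.0443) or stroke library 4 (adjusted p = 0.0375) was left out. In astrocytes the libraries held 33.1, 53.9 and 56.5 CPM in stroke and 17.1, 40.2 and 55.1 CPM in control, overlapping, with a log2 fold change of 0.44 (SE 0.23, adjusted p = 0.288).

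The pericyte difference in Hmox1 was present in both classes of library number. Numbers above 10 held 88.9 to 97.4 CPM in stroke and 4.89 to 7.58 CPM in control, and numbers up to 10 held 42.6 to 76.6 CPM in stroke and 8.44 to 33.2 CPM in control. Within numbers up to 10 the fit gave 1.45 with an adjusted p of 0.0502. Hmox1 also stood beside the microglia markers. Per 1000 CPM of those markers, Hmox1 amounted to 24.8 ± 8.77 CPM in pericyte stroke and 24.3 ± 16.6 CPM in pericyte control libraries, while the microglia libraries themselves had 3.55 ± 5.30 CPM in P4 stroke, 3.08 ± 3.07 CPM in P2 stroke and 0.581 ± 0.779 CPM in P2 control. In OPC the same quantity was 38.9 ± 14.4 CPM in stroke and 177 ± 53.2 CPM in control. It was 31.4 ± 7.03 CPM in astrocyte stroke and 65.0 ± 29.2 CPM in astrocyte control, and 117 ± 34.7 CPM in EC stroke and 148 ± 32.7 CPM in EC control. Neutrophil markers summed to 2.88 to 14.7 CPM in pericyte stroke libraries and at most 0.947 CPM in pericyte controls, with Ly6g at 0 counts in 6 of 8 stroke libraries. Red cell markers summed to 9.20 CPM in pericyte stroke and 15.5 CPM in pericyte control libraries. Fibroblast markers, which were higher in pericyte stroke libraries as given above, also stood beside this difference. The part of these cell types in the Hmox1 result was not tested.

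**Figure D3:**
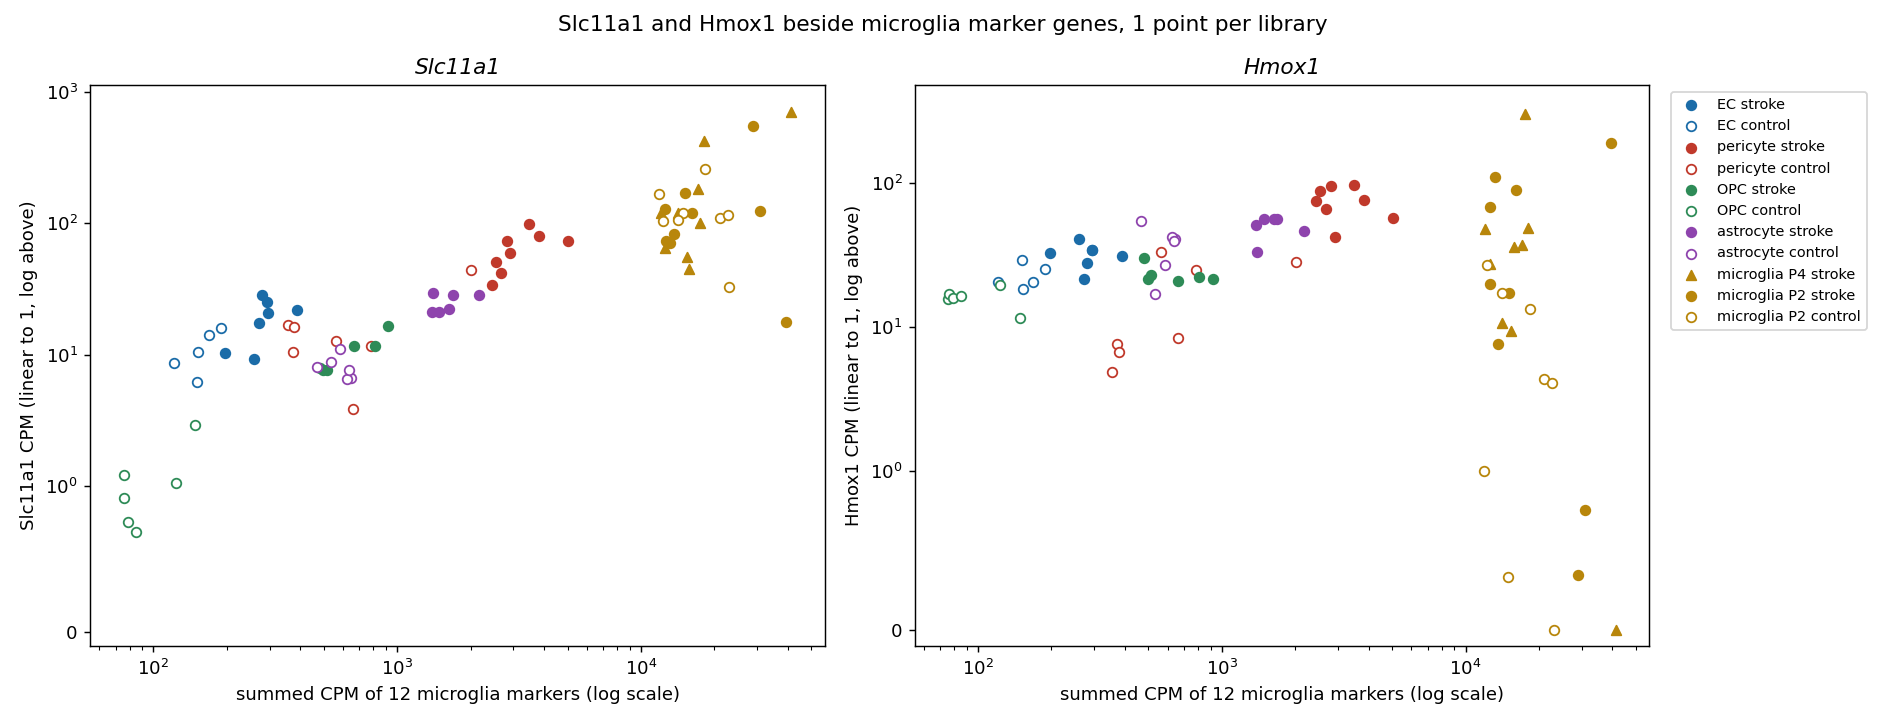
Slc11a1 (left) and Hmox1 (right) in CPM (linear to 1, logarithmic above) against the summed CPM of 12 microglia markers (log scale), 1 point per library, filled for stroke and open for control. Slc11a1 lies along a rising band over the groups other than EC. EC controls lie higher, at 6.16 to 16.0 CPM, than OPC controls of overlapping marker sums, at 0.680 to 2.90 CPM. Pericyte stroke libraries reach Hmox1 levels of 42.6 to 97.4 CPM at marker sums of 2441 to 5026 CPM, below the 11887 CPM and more of the microglia libraries.

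No cell type had both ferritin chains called in the same direction. Fth1 (chr19:9980598-9985098, + strand) encodes the chain with ferroxidase activity. In OPC it held 772, 917 and 1178 CPM in stroke and 989, 1232 and 1602 CPM in control. The ranges overlapped, all 6 stroke libraries were below the control median, and Fth1 fell to 940 ± 148 CPM in stroke, against 1263 ± 230 CPM in control (log2 fold change −0.43, SE 0.12, adjusted p = 0.0254). Mature oligodendrocyte markers were lower in the same libraries (9 of 9 genes, 38443 to 55467 CPM in OPC stroke and 66647 to 77329 CPM in OPC control) and astrocyte markers higher (6 of 10 genes), and their part in the Fth1 result was not tested. Without OPC stroke library 1 or 10 the adjusted p was 0.0527 or 0.0593. In pericytes all 8 stroke libraries were below the control median of Fth1, and the levels differed between the number classes, with 1605 to 2458 CPM in stroke and 1931 to 2152 CPM in control for numbers above 10, and 3491 to 4866 CPM in stroke and 5155 to 6875 CPM in control for numbers up to 10. The pericyte log2 fold change was −0.40 (SE 0.33, adjusted p = 0.384). EC and astrocyte libraries gave 0.18 (SE 0.10, adjusted p = 0.301) and 0.29 (SE 0.21, adjusted p = 0.458).

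Ftl1 (chr7:45457944-45459884, − strand) encodes the light chain, which helps the iron core to form. EC stroke libraries held 122, 185 and 248 CPM, against 95.8, 103, 112, 113 and 117 CPM in the 5 EC controls. The groups did not overlap, and Ftl1 was the single member called in EC, at 177 ± 43.0 CPM in stroke (n = 7) and 108 ± 8.72 CPM in control (n = 5), a log2 fold change of 0.71 (SE 0.15, adjusted p = 0.0206). Without EC control library 7 or 9 the adjusted p was 0.0688 or 0.0582. Within EC library numbers up to 6 or above 6, which differ in depth, Ftl1 did not overlap between groups either, with 0.57 (adjusted p = 0.498) and 0.80 (adjusted p = 0.0962). Astrocyte libraries held 121, 140 and 279 CPM in stroke and 75.9, 91.6 and 110 CPM in control. Again no stroke library was as low as a control, and the log2 fold change was 0.78 (SE 0.19, adjusted p = 0.0159), with means of 162 ± 58.6 CPM in stroke and 93.9 ± 12.8 CPM in control (n = 6 each). Microglia markers were higher beside both calls (12 of 12 genes in astrocytes and 5 of 12 in EC), as were those of monocytes and border macrophages (5 of 7 tested in astrocytes, with 1 lower, and 4 of 9 in EC), and their part in the Ftl1 results was not tested. In pericytes the libraries held 175, 484 and 665 CPM in stroke and 97.7, 239 and 407 CPM in control, which overlapped, and the difference of 0.77 (SE 0.36) had an adjusted p of 0.112. Within the number classes the pericyte groups did not overlap: above 10 Ftl1 held 175 to 333 CPM in stroke and 97.7 to 131 CPM in control, and up to 10 it held 478 to 665 CPM in stroke and 239 to 407 CPM in control. With the class as a covariate, an alternative chosen after the data were seen, the log2 fold change was 0.82 (SE 0.17, adjusted p = 0.00217). OPC libraries had 123 ± 12.9 CPM in stroke and 109 ± 14.6 CPM in control (log2 fold change 0.18, SE 0.10, adjusted p = 0.230).

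The reads of the light chain per 1000 reads of the heavy chain describe the balance between the 2 ferritin messages inside a library, with no test. Pericyte stroke libraries had 98.3 to 150 Ftl1 counts per 1000 Fth1 counts (mean 129 ± 17.6, n = 8), against 41.3 to 68.5 in pericyte controls (56.6 ± 11.7, n = 7), and the groups did not overlap, also not within either class of library number. OPC stroke libraries had 106 to 155 (132 ± 17.6), against 69.0 to 98.1 in OPC controls (87.2 ± 10.6, n = 6 each), again without overlap. Astrocytes had 70.1 to 90.5 (80.4 ± 7.18) in stroke and 39.5 to 72.3 (57.5 ± 12.2) in control, where 1 control library reached into the stroke range. EC had 43.4 to 75.3 (58.9 ± 9.45) in stroke and 37.9 to 48.6 (41.5 ± 4.33) in control, overlapping in the same way. The microglia libraries had the highest values, 240 ± 75.8 in P4 stroke, 184 ± 84.5 in P2 stroke and 205 ± 99.8 in P2 control, with wide overlap. Microglia markers, higher in 12 of 12 genes in pericyte, OPC and astrocyte stroke libraries, moved with the ratio, and their part in it was not tested. A ratio inside a library does not depend on library scaling. Processed copies of both genes can take reads: counts of Ftl1-like pseudogenes were 9.30% to 16.6% of the summed light chain counts in the 4 tables without microglia, and Fth1-like pseudogenes were at most 0.0443% of heavy chain counts there. In microglia the Ftl1-like share was 3.09% to 11.4%. The Fth1-like share there reached 16.1% in P2 stroke library 11, 4.38% in P4 stroke and 1.57% in P2 control. Library 11 also had the highest ratio of the P2 stroke group, 301. These shares differed between the tables, so the order of the tables by ratio is a description only.

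**Figure D4:**
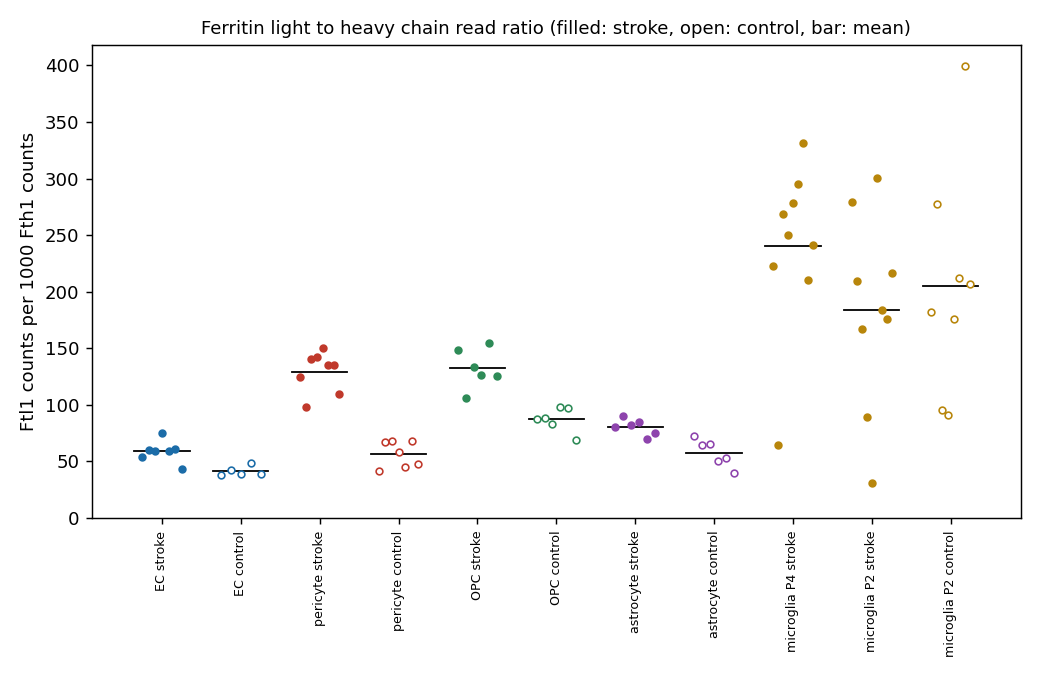
Ftl1 counts per 1000 Fth1 counts in every library by group; filled points are stroke, open points control, and bars group means. The pericyte and OPC stroke libraries, at 98.3 and above, lie above all their controls, and the microglia libraries range from 31.1 to 400.

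Slc40a1 and Cp belong to iron export. Slc40a1 encodes ferroportin, the iron exporter (chr1:45908068-45926523, − strand). It passed the test in 0 of 4 cell types, with 1 unadjusted p under 0.05 (OPC) and 0 calls with DESeq2. EC stroke libraries held 70.7, 89.2 and 119 CPM, against 43.8, 54.6, 69.3, 105 and 107 CPM in EC controls, with wide overlap and a log2 fold change of 0.22 (SE 0.20, adjusted p = 0.576). OPC libraries held 4.32, 5.08 and 8.03 CPM in stroke and 2.38, 3.61 and 6.33 CPM in control, overlapping, with 0.52 (SE 0.22, adjusted p = 0.113), and 0.71 without control library 12 (adjusted p = 0.0133). The differences were 0.28 (SE 0.17, adjusted p = 0.215) in pericytes and 0.53 (SE 0.25, adjusted p = 0.222) in astrocytes.

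Cp (chr3:19957054-20009145, + strand) encodes ceruloplasmin, a copper enzyme that oxidises exported iron so that transferrin can bind it. Pericyte stroke libraries held 353, 901 and 1226 CPM, against 241, 288 and 1209 CPM in pericyte controls. All 8 stroke libraries were above the control median. The ranges overlapped, also without the highest control, library 6, since the next highest control held 414 CPM. Library 6 also carried the 5245 CPM of ependymal and choroid plexus markers. The means were 881 ± 302 CPM in stroke and 437 ± 347 CPM in control, a log2 fold change of 1.01 (SE 0.36, adjusted p = 0.0442), and without that library 1.52 (adjusted p = 0.000624). Stroke libraries 4 and 16 held 1966 and 690 CPM of the ependymal and choroid plexus markers, with no such high sum in the other 6. The call was lost in 11 of 15 fits that each left out 1 library. Those were control libraries 5, 8, 9, 11, 14 and 15 and stroke libraries 1, 4, 7, 10 and 12, with values of 0.86 to 1.00. Cp missed the threshold at 0.62 (SE 0.21, adjusted p = 0.0970) in EC, at 0.25 (SE 0.10, adjusted p = 0.0849) in OPC and at 0.69 (SE 0.26, adjusted p = 0.116) in astrocytes. Each of these passed without 1 library, EC control 11 (0.85, adjusted p = 0.0254), OPC stroke 5 (0.30, adjusted p = 0.0303) or astrocyte control 1 (0.99, adjusted p = 0.00633). Its gene overlaps Hps3 on the opposite strand, and with unstranded reads the 2 cannot be told apart there. Ftl1 overlaps Gm10252 on the opposite strand and the miRNA gene Gm22133 on the same strand.

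Tfrc (chr16:32608920-32632794, + strand) encodes the transferrin receptor. In OPC it held 19.6, 23.3 and 29.8 CPM in stroke and 23.8, 31.0 and 41.5 CPM in control. The ranges overlapped and all 6 stroke libraries were below the control median: Tfrc fell to 24.0 ± 3.66 CPM in stroke, against 32.2 ± 6.00 CPM in control (log2 fold change −0.43, SE 0.13, adjusted p = 0.0304). Astrocyte libraries held 22.2, 23.2 and 29.7 CPM in stroke and 26.9, 30.4 and 44.0 CPM in control, where Tfrc was 24.2 ± 2.80 CPM in stroke and 32.8 ± 6.14 CPM in control (−0.44, SE 0.13, adjusted p = 0.0460). The OPC difference stood beside the lower mature oligodendrocyte markers given for Fth1, whose part was not tested. Both calls were near the threshold and were lost in 6 of 12 fits in OPC and 10 of 12 in astrocytes that left out 1 library. In OPC these were control libraries 7 and 11 and stroke libraries 2, 3, 5 and 10 (adjusted p at most 0.0709), and in astrocytes all but control library 1 and stroke library 3 (adjusted p at most 0.132). Pericytes gave −0.52 (SE 0.26, adjusted p = 0.145), with 17.0, 26.3 and 42.7 CPM in stroke and 20.2, 36.5 and 72.4 CPM in control. Within pericyte numbers above 10 the groups did not overlap, with 29.3 to 42.7 CPM in stroke and 46.9 to 72.4 CPM in control (n = 3 each). Within numbers up to 10 they overlapped, with 17.0 to 36.5 CPM in stroke (n = 5) and 20.2 to 36.5 CPM in control (n = 4). In EC, whose controls had the highest mean Tfrc, the means were 51.2 ± 18.3 CPM in stroke and 51.6 ± 6.34 CPM in control (−0.01, SE 0.20, adjusted p = 0.982).

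Slc11a1 (chr1:74375195-74386062, + strand), which moves iron and manganese out of the phagosome in macrophages, was the member with the largest fold changes in OPC and astrocytes. In OPC it held 7.58, 9.74 and 16.5 CPM in stroke and 0.680, 0.987 and 2.90 CPM in control. The groups stood far apart, at 10.5 ± 3.53 CPM in stroke and 1.25 ± 0.828 CPM in control (log2 fold change 3.07, SE 0.35, adjusted p = 1.66e-05). Astrocyte libraries held 21.2, 25.4 and 29.6 CPM in stroke and 6.55, 7.81 and 11.1 CPM in control, also without overlap, and the log2 fold change was 1.64 (SE 0.16, adjusted p = 2.11e-05). Pericyte libraries held 33.7, 66.5 and 98.6 CPM in stroke and 3.83, 12.8 and 44.4 CPM in control. They overlapped through 1 control, library 8, which also had the highest microglia marker sum of the pericyte controls (2009 CPM), and the log2 fold change was 1.95 (SE 0.39, adjusted p = 0.00198), with 1.71 (adjusted p = 0.104) within numbers up to 10. In EC the difference of 0.78 (SE 0.30) missed the threshold (adjusted p = 0.135), with 9.21, 20.7 and 28.4 CPM in stroke and 6.16, 8.63, 10.5, 14.1 and 16.0 CPM in control.

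Slc11a1 moved with the microglia markers. Per 1000 CPM of these markers it amounted to 16.0 ± 1.50 CPM in OPC stroke and 12.3 ± 4.63 CPM in OPC control libraries, to 15.7 ± 2.98 CPM in astrocyte stroke and 14.2 ± 3.72 CPM in astrocyte control, and to 20.0 ± 5.27 CPM in pericyte stroke and 26.3 ± 14.8 CPM in pericyte control. EC had 66.5 ± 21.9 CPM in stroke and 69.7 ± 17.8 CPM in control. In microglia libraries the value was 9.68 ± 6.78 CPM in P4 stroke, 7.75 ± 5.32 CPM in P2 stroke and 7.96 ± 4.35 CPM in P2 control. The ranges of stroke and control libraries overlapped in each of these tables. Markers of monocytes and border macrophages summed to 18.1 CPM in OPC stroke and 2.77 CPM in OPC control, 44.5 CPM in astrocyte stroke and 18.8 CPM in astrocyte control, and 90.1 CPM in pericyte stroke and 30.2 CPM in pericyte control. The part of these cells in the Slc11a1 result was not tested.

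Slc7a11 (chr3:49892526-50443614, − strand) encodes xCT, which imports cystine in exchange for glutamate and so supplies glutathione synthesis. Astrocyte libraries held 23.5, 36.6 and 44.9 CPM in stroke and 47.4, 54.6 and 66.6 CPM in control. Every stroke library was below every control, and Slc7a11 fell to 35.9 ± 8.10 CPM in stroke, against 55.5 ± 7.35 CPM in control (n = 6 each; log2 fold change −0.63, SE 0.15, adjusted p = 0.0173). The call was lost without control library 2 or 5 or stroke library 4 (adjusted p = 0.0606, 0.0629 and 0.0565). In pericytes, where the gene was highest, the libraries held 101, 161 and 366 CPM in stroke and 174, 201 and 348 CPM in control. They overlapped, with −0.39 (SE 0.26, adjusted p = 0.262), and leaving out stroke library 1, the highest, gave −0.68 (adjusted p = 0.0262). In EC the level was 7.66 ± 1.59 CPM in stroke and 7.68 ± 1.97 CPM in control, and in OPC 2.20 ± 0.830 CPM in stroke and 1.83 ± 0.624 CPM in control, neither passing (adjusted p = 0.997 in EC and 0.531 in OPC).

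Whether the stroke response differed among EC, pericytes, OPC and astrocytes was tested as an interaction in 1 fit over 51 libraries, where 14.3% of 25257 genes were called. Hmox1 (adjusted p = 0.00226) and Slc11a1 (adjusted p = 0.00371) passed, and the other 6 did not (adjusted p from 0.180 for Slc7a11 to 0.668 for Slc40a1). With the P2 microglia libraries added to the fit the adjusted p of Hmox1 was 0.154. For Hmox1 the pericyte log2 response exceeded that of EC by 1.71 (95% interval 0.91 to 2.52, adjusted p = 0.00395), that of OPC by 1.60 (0.80 to 2.40, adjusted p = 0.00723) and that of astrocytes by 1.77 (0.96 to 2.57, adjusted p = 0.00476). The other 3 pairs did not pass, with OPC minus EC at 0.11 (−0.73 to 0.96). For Slc11a1 the OPC response exceeded that of EC by 2.36 (1.42 to 3.30, adjusted p = 0.00176), and the other 5 pairs did not pass over all genes. With the same test adjusted only over the 6 pairs of this gene, OPC minus astrocyte also passed (1.46, adjusted p = 0.0108). So did pericyte minus EC (1.18, adjusted p = 0.0184) and pericyte minus OPC (−1.18, adjusted p = 0.0184). The ferritin chains gave no pair past the threshold, with pericyte minus astrocyte at −0.69 (−1.32 to −0.06) for Fth1 and 0.00095 (−0.69 to 0.69) for Ftl1. The shares of all genes called for a pair were 13.3% for pericyte minus EC, 11.1% for pericyte minus OPC, 6.43% for pericyte minus astrocyte, 2.36% for OPC minus EC, 1.43% for OPC minus astrocyte and 0.0475% for astrocyte minus EC.

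In microglia 0 of the 7 members tested passed edgeR's test in each of the 3 comparisons, where 0.00756% of genes were called for P2 stroke over P2 control, 0.00756% for P4 stroke over P2 stroke and 0.718% for P4 stroke over P2 control. At an unadjusted p under 0.05 there were 2, 0 and 3 members, as were 1342, 1517 and 1929 of all 13225 genes tested. DESeq2 called 0, 0 and 1 members, and its counts over all genes are given further below. Slc7a11 was not tested: it had 0 counts in 5 of 9 P4 stroke, 4 of 9 P2 stroke and 4 of 8 P2 control libraries, and a count of 0 allows up to 0.267 to 0.920 CPM there (3 counts, counting error only). The comparisons share the P2 libraries, and P4 and stroke cannot be told apart in P4 stroke against P2 control.

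Fth1 in microglia held 533, 1049 and 2004 CPM in P4 stroke, 151, 936 and 1315 CPM in P2 stroke and 366, 462 and 729 CPM in P2 control libraries. All 9 P4 stroke and 8 of 9 P2 stroke libraries were above the control median. The log2 fold change was 1.13 (SE 0.32, adjusted p = 0.0810) for P4 stroke over P2 control and 0.87 (SE 0.32, adjusted p = 0.352) for P2 stroke over P2 control, and DESeq2 gave 1.20 (adjusted p = 0.0125) for P4 stroke over P2 control. Without P2 stroke library 9 edgeR gave 1.17 for that comparison (adjusted p = 0.0312). Ftl1 held 119, 253 and 332 CPM in P4 stroke, 13.4, 188 and 261 CPM in P2 stroke and 34.9, 99.0 and 182 CPM in P2 control. All 9 P4 stroke libraries were above the control median here too (1.20, SE 0.48, adjusted p = 0.227). Hmox1 ranged from 0 to 303 CPM in P4 stroke, from 0.344 to 192 CPM in P2 stroke and from 0 to 26.9 CPM in P2 control. The median was 35.9 CPM in P4 stroke, 19.8 CPM in P2 stroke and 4.22 CPM in P2 control, and the difference of 2.74 (SE 1.15) for P2 stroke over P2 control had an adjusted p of 0.421. Slc11a1, the microglia-rich member, had medians of 119 CPM in P4 stroke, 119 CPM in P2 stroke and 112 CPM in P2 control, with a log2 fold change of 0.24 (SE 0.57, adjusted p = 0.921) for P2 stroke over P2 control. Slc40a1 medians were 17.6 CPM in P4 stroke, 60.4 CPM in P2 stroke and 101 CPM in P2 control (P4 stroke over P2 control −1.33, SE 0.74, adjusted p = 0.413). Cp ranged from 0.173 to 179 CPM and Tfrc from 0.173 to 34.0 CPM within P2 control alone, and neither passed.

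The wider pathways were counted on 3 lists that leave out the 8 members. Of the iron transport and storage list, 4 genes were higher and 1 lower of 26 tested in pericytes, 6 higher and 4 lower of 26 in OPC, 1 higher and 0 lower of 27 in EC, and 0 of 25 in astrocytes. In astrocytes 4 of the list were at an unadjusted p under 0.05, as were 4265 of all 18796 genes tested. Over all genes tested 28.7% were called in pericytes, 20.5% in OPC, 6.23% in EC and 10.3% in astrocytes, and these shares are the background for all 3 lists. Slc39a14, the ZIP14 transporter of iron not bound to transferrin, was higher in pericytes, at 263 ± 95.6 CPM in stroke (n = 8) and 33.5 ± 11.2 CPM in control (n = 7; log2 fold change 2.97, SE 0.28, adjusted p = 8.39e-06), and in OPC, at 24.7 ± 3.28 CPM in stroke and 11.9 ± 1.62 CPM in control (1.05, SE 0.11, adjusted p = 1.15e-05). Lcn2, a protein that binds iron-loaded siderophores, and Pcbp1, an iron chaperone of ferritin, were also higher in pericytes, by 3.89 (SE 0.98) and 0.61 (SE 0.18), and Tmprss6, a protease that restrains hepcidin in liver, was lower by a log2 fold change of −2.37 at a mean of 0.303 CPM in stroke and 1.58 CPM in control. In OPC Hfe, a partner of the transferrin receptor, and Cybrd1, a ferric reductase, were higher by 0.86 and 2.40, while Fbxl5, which marks an iron regulatory protein for degradation, Trf, transferrin itself, and Steap1 changed by −0.57, −0.48 and −0.57. Hfe was the EC gene, at 59.2 ± 7.51 CPM in stroke and 38.4 ± 9.95 CPM in control (0.62, SE 0.15, adjusted p = 0.0317).

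On the heme list, 5 genes were higher and 2 lower of 23 in pericytes, 1 higher and 7 lower of 19 in OPC, 1 higher and 1 lower of 23 in EC, and 0 higher and 1 lower of 21 in astrocytes. The pericyte count was near the 28.7% of all genes called there. Hp, haptoglobin, which binds free hemoglobin, was higher in pericytes, at 60.8 ± 37.7 CPM in stroke and 0.284 ± 0.370 CPM in control (7.77, SE 0.92, adjusted p = 4.68e-05), and in EC at 2.38 ± 0.946 CPM in stroke and 0.722 ± 0.400 CPM in control (1.73, SE 0.41, adjusted p = 0.0286). Bach1, a heme-sensing repressor of Hmox1, was higher in pericytes by 1.31 (SE 0.20, adjusted p = 0.000340) and in OPC by 0.33 (SE 0.11, adjusted p = 0.0484). The folate and heme carrier Slc46a1 was higher in pericytes by 0.99. The lower genes in OPC included Slc48a1, which moves heme out of lysosomes, at 269 ± 12.0 CPM in stroke and 474 ± 23.0 CPM in control (−0.82, SE 0.06, adjusted p = 3.17e-07), Hmox2, the constitutive heme oxygenase (−0.48), and Cpox, an enzyme of heme synthesis (−0.54). Slc48a1 (−0.63) and Cpox (−0.58) were the 2 lower genes in pericytes. Pgrmc1, a heme-binding membrane protein, was the lower gene in EC (−0.27), and Cd163, the hemoglobin and haptoglobin receptor of macrophages, was the lower gene in astrocytes, at 0.262 CPM in stroke and 1.01 CPM in control (−1.93).

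On the list of NRF2, glutathione and oxidative defence genes, 6 were higher and 0 lower of 25 in pericytes, 2 higher and 5 lower of 25 in OPC, and 1 higher and 0 lower of 25 in EC and in astrocytes each. In either direction together, the counts in pericytes, EC and astrocytes were at or below the shares of all genes called there (28.7%, 6.23% and 10.3%). By direction, the 6 of 25 higher in pericytes were above the 15.9% of all genes called higher there. The 0 lower were below the 12.8% called lower, and these differences were not tested. Txnrd1, a thioredoxin reductase, was higher in pericytes (0.66, SE 0.13) and OPC (0.51, SE 0.11). Acsl4, which builds lipids prone to peroxidation, and Sod2, the mitochondrial superoxide dismutase, were higher in pericytes (0.92 and 0.88), and Mt2, a metallothionein, in OPC (1.08). The lower genes in OPC included the glutathione synthesis genes Gss (−0.82, SE 0.10) and Gclm (−0.50, SE 0.08) and Gpx4, the peroxidase that reduces lipid peroxides (143 ± 6.92 CPM in stroke and 180 ± 31.2 CPM in control, −0.33, SE 0.10, adjusted p = 0.0268). Gpx1, the cytosolic glutathione peroxidase, was the gene called in EC (0.47, SE 0.12) and in astrocytes (599 ± 150 CPM in stroke and 319 ± 95.0 CPM in control, 0.91, SE 0.21, adjusted p = 0.0143). In microglia 0 genes of the 3 lists passed edgeR's test in the 3 comparisons, with 0 to 4 genes of a list at an unadjusted p under 0.05. Of all 13225 genes tested there, 1342 (P2 stroke over P2 control), 1517 (P4 stroke over P2 stroke) and 1929 (P4 stroke over P2 control) were under it. Neutrophil markers were higher in pericytes, where Hp and Lcn2 were called, for 2 of the 3 tested (sum 8.62 CPM in stroke and 0.365 CPM in control). The microglia, fibroblast, neuron and mature oligodendrocyte markers also moved with these groups as given above (mature oligodendrocyte markers were lower for 8 of 9 genes in pericyte stroke libraries too), and their part in these counts was not tested.

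Across the means of the 11 groups on the log2(CPM + 1) scale, the genes whose pattern was most like that of each member were named among 12997 genes, as a description over points that share tables. Hmox1 was nearest to Gnai2, Egln3 and Plin2 (Pearson r = 0.94, 0.93 and 0.89), Fth1 to Slc16a11, Chchd7 and Crip1 (0.97, 0.97 and 0.96), and Ftl1 to Mdfic, Spp1 and Zbtb2 (0.96, 0.92 and 0.92). Slc40a1 was nearest to Pdgfb, Igf1r and Ceacam1 (0.98, 0.96 and 0.95), Cp to Tmem45a, Ifitm1 and Tbxa2r (0.98 each), Tfrc to Ppp2r2c, Swsap1 and Hagh (0.99 each), Slc11a1 to Ptpn6, Irf5 and Arhgap45 (0.99 each), and Slc7a11 to Slc1a5, Kank2 and Gjb2 (0.97, 0.97 and 0.96). Among the members themselves, Fth1 and Tfrc had r = 0.83 and Fth1 and Slc7a11 had r = 0.80, whereas the 2 ferritin chains had r = 0.54 and Tfrc and Slc11a1 had r = −0.76.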

How the data were processed

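The deposited values are counts of reads per Ensembl gene, not normalized, in 5 tables with 1 column per library. The labels' protocols name the NucleoSpin RNA XS kit for extraction and, for the libraries, Takara SMART-Seq v4, which gives unstranded reads and no molecular identifiers, so limits computed from counts cover counting error only. Per the submitters' processing notes the tools were bcl2fastq 2.20, STAR and HTSeq with GRCm38. In 4 tables the headers start with "hisat". The sources used here do not give the annotation release or strand setting.

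Groups came from the labels. Each comparison was fitted in R 4.3.3 with edgeR 4.0.16 (TMM factors, filterByExpr, two-sided quasi-likelihood test, Benjamini-Hochberg adjustment over all genes tested), microglia groups in 1 fit, and the interaction over 51 libraries. CPM are counts per 1000000 of the TMM-scaled library total. One marker gene is not reported here and was left out of its list. Members and lists were chosen with earlier results of these data known. All members were named, and of each list up to 3 called genes per direction with the smallest p, leaving the rest as counts. For likeness, the 3 genes with the highest correlation were named, among genes with at least 10 CPM in 1 group or more. Exon lengths are unions of GENCODE M21 exons. The alternatives were DESeq2 1.42.0, limma 3.58.1 voom with quality weights, other scaling, no filter, library number classes, libraries or pseudogene counts summed, and leaving out libraries. The fits were also run on simulated counts with 200 genes changed, and the shares recovered or falsely called are not given here.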

Additional observations from a re-analysis of the deposited data

Results flagged for a closer look

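In 22 of 88 pairs of a gene and a group 1 library stood far from the others of its group by Dixon's test. Of the 22, 9 were in microglia. The test was set at the 5% level for normally distributed values, which was not checked for CPM. Some libraries were flagged for several genes, so the count is not read as an excess over chance. Astrocyte stroke library 12 held the highest Fth1 (3719 CPM), Ftl1 (279 CPM) and Slc40a1 (15.5 CPM) of its group and stroke library 3 the highest Tfrc (29.7 CPM), while astrocyte control library 1 held the highest Cp (23.3 CPM). Pericyte control library 6 held the highest Cp (1209 CPM), pericyte control library 8 the highest Slc11a1 (44.4 CPM) and pericyte stroke library 1 the highest Slc7a11 (366 CPM). Among OPC, stroke library 10 had the lowest Ftl1 (97.0 CPM), stroke library 8 the highest Hmox1 (30.1 CPM), stroke library 2 the highest Slc40a1 (8.03 CPM) and control library 12 the highest Slc11a1 (2.90 CPM). EC stroke library 14 had the highest Slc40a1 (119 CPM).

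In microglia, P4 stroke library 19 had the highest Fth1 (2004 CPM), P4 stroke library 21 the highest Hmox1 (303 CPM) and P4 stroke library 22 the highest Tfrc (58.5 CPM). P2 stroke library 9 had the highest Slc11a1 (549.8 CPM), P2 stroke library 6 the highest Tfrc (87.3 CPM) and P2 stroke library 11 the highest Slc7a11 (55.6 CPM). P2 control library 13 had the highest Cp (179 CPM) and Slc40a1 (559 CPM), and P2 control library 8 the highest Slc7a11 (3.98 CPM).

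The stroke response differed among the 4 cell types for Hmox1 (interaction, edgeR adjusted p = 0.00226) and for Slc11a1 (adjusted p = 0.00371).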

How the results depend on the processing

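No paired analysis was possible because stroke and control libraries of a cell type, and P4 and P2 libraries, share no library numbers. Hmox1 and Slc11a1 in pericytes and OPC, and Ftl1 and Slc11a1 in astrocytes, kept their calls in all fits that left out 1 library. Genes called, with 1 library left out, numbered 138 to 1493 in EC (1309 with all, 138 without control 7, 195 without control 9, 625 without stroke 8, 748 without stroke 10), 1387 to 2220 in astrocytes, 3041 to 3936 in OPC and 4942 to 7365 in pericytes, and in microglia 0 to 15 for P2 stroke over P2 control, 1 to 3 for P4 over P2 stroke and 16 to 205 for P4 stroke over P2 control. DESeq2 called 2834 genes in EC, and 331, 223 and 1018 in these microglia comparisons. With no filter on low counts there were 862 in EC, and 2, 52 and 1770 in microglia. With only the groups compared, microglia gave 0, 0 and 28, and without P2 stroke 11 and P4 stroke 19 they gave 0, 0 and 168. Within EC numbers up to 6 or above 6, 0 genes were called, and within pericyte numbers up to 10, 953. For pairs of cell types voom called 22 (astrocyte minus EC), 898 (OPC minus astrocyte), 1350 (OPC minus EC) and 920 (pericyte minus astrocyte).

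Directions that turned belonged to differences that were not called. EC Slc40a1 gave −0.084 within numbers up to 6. EC Slc7a11 gave 0.017 with the class covariate, 0.070 with library totals alone, 0.23 within numbers up to 6, and −0.13 to 0.087 with 1 library left out. EC Tfrc gave 0.048 with library totals, 0.053 within numbers above 6, and −0.20 to 0.053. For P4 over P2 stroke Hmox1 gave −0.055 (DESeq2), −0.055 (RLE factors) and −1.03 to 0.55, and Slc11a1 −0.23 without the 2 libraries and −0.11 to 1.04. For P2 stroke over P2 control the ranges were −0.099 to 1.52 (Cp), −0.33 to 0.49 (Slc11a1) and −0.94 to 0.045 (Slc40a1), and for P4 stroke over P2 control −1.41 to 0.22 (Cp) and −0.66 to 0.85 (Tfrc). For differences of response, astrocyte minus EC Hmox1 gave 0.061 (voom) and 0.023 (RLE), OPC minus astrocyte Slc40a1 −0.087 and Tfrc −0.060 (RLE), pericyte minus astrocyte Ftl1 −0.12 (RLE), and pericyte minus OPC Fth1 0.034 (voom). The cause was not tested.

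With library totals alone the median of all genes was −0.28 in pericytes (−0.08 with TMM), 0.11 in OPC (−0.01) and 0.10 in EC (0.03), and the higher share of called genes was 38.0% (55.2%), 80.6% (57.2%) and 78.7% (57.2%). Under it Fth1 (−0.31, adjusted p = 0.113) and Tfrc (−0.31, adjusted p = 0.102) lost their calls in OPC, and Ftl1 (0.29, adjusted p = 0.0421) and Cp (0.36, adjusted p = 0.0126) gained one, while calls were also lost for Tfrc in astrocytes (−0.43, adjusted p = 0.0845) and Cp in pericytes (0.83, adjusted p = 0.0597) and gained for Hmox1 in EC (0.54, adjusted p = 0.0496). With no filter calls were lost for Slc7a11 (−0.60, adjusted p = 0.0561) and Tfrc (−0.40, adjusted p = 0.152) in astrocytes and Cp in pericytes (adjusted p = 0.0574), and with RLE factors for Tfrc in astrocytes (−0.42, adjusted p = 0.0578). With pericyte controls 11 and 15, the most alike of the controls, summed as 1 library, Cp gave 0.91 (adjusted p = 0.0890). Within pericyte numbers up to 10 Slc11a1 gave 1.71 (adjusted p = 0.104). With P2 microglia added to the 4 cell types the interaction adjusted p was 0.154 for Hmox1, 0.0285 for Fth1 and 0.0156 for Slc7a11. Microglia had the lowest library totals, and their counts of called genes differed between methods as given above.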
